A study of Mus musculus with 48 samples.

Results

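The major urinary proteins (Mup) are described here by 6 genes, Mup1, Mup3, Mup4, Mup5, Mup20 and Mup21, out of 37074 gene names on a mouse liver microarray. Members are every probe that is not a control and carries 1 of these gene symbols. They have 10 probes: 3 for Mup3, 2 each for Mup20 and Mup21 and 1 each for Mup1, Mup4 and Mup5. All 10 probes passed the filter on dim signals, which left 20486 genes in all, and each was well above background on 48 of 48 arrays. A gene is read at its brightest probe, called probe 1.

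Major urinary proteins are small secreted lipocalins, barrel-shaped proteins that hold volatile molecules in a pocket. In mice they are made mainly by hepatocytes, pass through the blood into urine and carry scent signals between animals. Their genes form a dense cluster of near-identical copies, and their liver expression is higher in males, where it follows the pulses of growth hormone and depends on androgens, glucocorticoids and thyroid hormone. Mup1 belongs to the group of copies with almost the same sequence. Mup20, also called darcin, is a male pheromone in its own right. Mup3, Mup4, Mup5 and Mup21 belong to the more divergent members, and Mup4 and Mup5 are known from secretory and nasal tissues as well as liver.

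Liver RNA came from 48 male mice, 1 array per mouse and 6 mice in each of 8 groups. The p110αhep-/- mice carry floxed p110α and an albumin-Cre transgene, which deletes the gene in hepatocytes and leaves it in the other cells of the liver. The p110αhep+/+ controls were littermates with floxed p110α and no Cre, so that every mouse carried the floxed allele. From 12 weeks of age the mice received for 12 weeks either a CTRL diet or a high fat diet (HFD) with 60% of calories from fat. They were then either fed freely or fasted for 24 h, and all were killed at Zeitgeber time 16. Each slide held 1 array of every group, and each of the 2 washing batches held 3 arrays of every group.

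On the arrays, 50.1% to 57.4% of probes were well above background, and the weights that the fit gave to arrays, lower for arrays that deviate more from their group, ran from 0.35 to 1.71. The lowest weight belonged to replicate 3 of fed p110αhep-/- mice on HFD. Pik3ca, which encodes p110α, has 1 probe at chr3:32364747-32364806 (mm9). It starts at base 6255 of the transcript, toward the 3′ end and outside the deleted exons, so it does not check the genotype labels. Its level was higher in p110αhep-/- mice in 3 of 4 comparisons by the adjusted p, at 0.39 in fed mice on CTRL diet, 0.58 in fed mice on HFD (adjusted p = 2.79e-07, 13.32 against 12.74) and 0.25 in fasted mice on HFD, and differed by 0.07 (adjusted p = 0.534) in fasted mice on CTRL diet. All 6 hepatocyte markers (Alb, Apoa1, Ttr, Cps1, Tat and Serpina1a) passed the filter, and their median difference lay between -0.01 and 0.01 in the 4 comparisons of diet, between 0.07 and 0.18 in those of genotype and between -0.01 and 0.18 in those of fasting, over members that moved both ways. In such bulk RNA, fewer cells of a type and less RNA per cell cannot be told apart.

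The probes are 60 bases long, and close copies of a gene can bind the same probe, so the sequences come before the values. The Mup1 probe (chr4:60512590-60512649, mm9) is listed by the scanner files for Mup1, Mup2 and Mup19. Mup21 probe 1 (chr4:61809270-61809669) is listed for Mup21 and for those 3 genes, while the remaining probes name their own gene or none.

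Probes on which the differences turn are shown here. The Mup5 probe (chr4:61496097-61496156) starts at base 58 of its transcript, and its capitals mark each triplet CTG. Mup3 probe 2 (chr4:61745794-61745853) and Mup20 probe 2 (chr4:61713671-61713730) have no marked bases. Mup20 probe 1 (chr4:61711407-61711466) lies nearer the 3′ end of its transcript than Mup20 probe 2, starting at base 688 against base 314.
Mup5 probe 1: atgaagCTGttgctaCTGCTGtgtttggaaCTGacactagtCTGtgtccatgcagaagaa
Mup3 probe 2: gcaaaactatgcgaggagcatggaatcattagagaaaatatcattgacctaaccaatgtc
Mup20 probe 2: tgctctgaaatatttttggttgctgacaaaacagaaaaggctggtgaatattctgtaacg

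Mup20 probe 1 resembles the Mup4 probe (chr4:59969824-59969883), with 45 of 52 overlapping bases the same. A stretch of 30 bases from each, bases 14 to 43 of the Mup20 probe and bases 22 to 51 of the Mup4 probe, shows how alike they are. Capitals mark the base that differs.
Mup20 probe 1: aagttctgtgatctgctttccatcGtgtct
Mup4 probe 1: aagttctgtgatctgctttccatcCtgtct

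Levels are normalized log2 signals, and differences are log2 fold changes from a limma fit over all 48 arrays. To be called, a difference needed a fold change above 1.5 and a p of 0.05 or less after adjustment over all 30793 probes. Probes bind with different strength, so a brighter probe does not mean more mRNA, and brightness ranks are given only to place a probe on the scale. The raw signals of the brightest probes reached 61.0% of the saturation value for Mup21 probe 1, 59.8% for Mup1 and 55.3% for Mup20 probe 1, and no spot was saturated. On average 9 probes of the whole array were brighter than Mup21 probe 1 and 13 were brighter than the Mup1 probe. Quantile normalization sets a level by its rank.

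Over the 8 group means, the span was 0.16 for Mup21 probe 1, 0.24 for Mup4, 0.28 for Mup1, 0.42 for Mup3 probe 1, 0.77 for Mup20 probe 1 and 0.90 for Mup5. The widest span of the 10 probes was 1.75, in Mup21 probe 2. Ordered from high to low, 61 of 70 neighbouring group means differed by less than the larger SD of the pair, and all 70 pairs overlapped in their arrays. A group of p110αhep+/+ mice on CTRL diet, fed or fasted, had the highest mean in 9 of 10 probes, and the exception was Mup3 probe 3, whose highest mean was in fasted p110αhep-/- mice on CTRL diet.

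**Figure D1:**
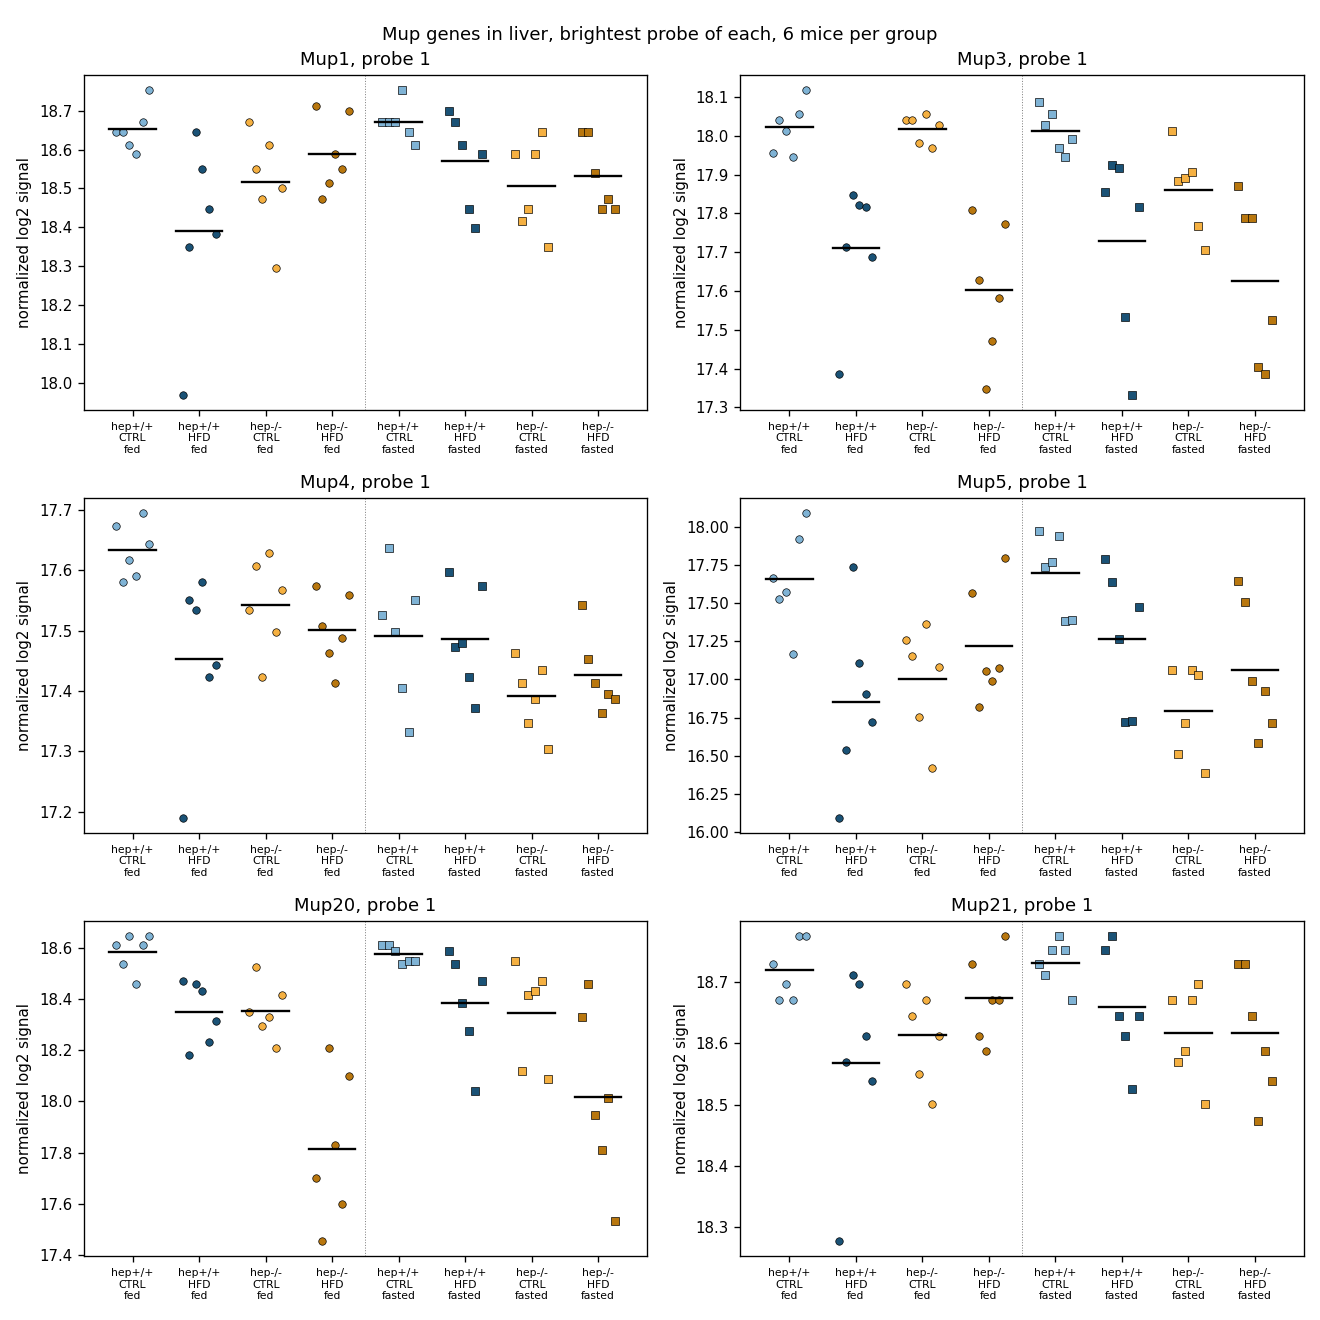
Normalized log2 signal (vertical axes, separate scale for each gene, not starting at 0) of the brightest probe of 6 Mup genes in 8 groups of 6 mice; each point is 1 mouse and each line a group mean. Mup5 and Mup20 spread over the widest ranges, and replicate 1 of fed p110αhep+/+ mice on HFD lies lowest in Mup1 at 17.97 and in Mup5 at 16.10.

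Replicate 1 of fed p110αhep+/+ mice on HFD was the lowest array of its group in Mup1, Mup3 probes 1 and 2, Mup4, Mup5 and Mup21 probe 1. For Mup1 it was at 17.97, against 18.35 to 18.65 in the other 5 mice. For Mup4 it was at 17.19, against 17.42 to 17.58. In Mup20 probe 1 the same array was the highest of its group, at 18.47. The main differences of Mup probes that use this group are therefore also given without it.

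The first comparison asked how HFD changed Mup mRNA in control mice and in mice without hepatocyte p110α. In fed p110αhep+/+ mice all 6 genes had lower means on HFD, and Mup5 was called. Of all genes, 3.74% were called in this comparison. With the adjusted p alone, 5 of 6 Mup genes passed against 24.0% of all genes. The median difference of the 6 genes was -0.25, against -0.01 over all genes.

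Mup5, a divergent member also made in salivary and tear glands, ran from 17.16 through a median of 17.62 to 18.09 in fed p110αhep+/+ mice on CTRL diet. On HFD it ran from 16.10 through 16.81 to 17.74. The ranges overlapped, but all HFD mice except the highest lay below every CTRL mouse. The difference was -0.83 ± 0.20 (SE, n = 6 per group), a fold of 1.78, with an adjusted p of 0.00222 (limma). Without replicate 1 it was -0.71, with an adjusted p of 0.00863. Within the washing batches it was -0.92 and -0.64, and in the second batch alone it did not pass (adjusted p = 0.19).

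Mup1 fell by 0.25 ± 0.07 (SE, adjusted p = 0.00617), below the fold threshold. Mup21 probe 1, which is also listed for Mup1, fell by 0.15 ± 0.05 (adjusted p = 0.0322). Mup4 fell by 0.17 ± 0.05 (adjusted p = 0.0106). Without replicate 1 the last of these was -0.12 with an adjusted p of 0.0603, that of Mup21 probe 1 was -0.11 with 0.0621, and that of Mup1 was -0.18 with 0.0242. In all, 3 of 6 genes passed the adjusted p without that mouse.

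Mup3 probe 1 was at 17.95 to 18.12, with a median of 18.03, in fed p110αhep+/+ mice on CTRL diet. On HFD it was at 17.39 to 17.85, with a median of 17.76. No array of the 2 groups overlapped, a pattern that 9.51% of all genes showed in this comparison. Of the 6 genes, 2 had it, Mup3 and Mup4. For Mup4 it was nearly a tie, with the lowest CTRL mouse at 17.581 and the highest HFD mouse at 17.5809. The difference of Mup3 probe 1 was -0.30 ± 0.08 (SE, adjusted p = 0.00427), and -0.26 (adjusted p = 0.0125) without replicate 1.

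The further probes of Mup20 and Mup21 moved more than the brightest ones. Mup21 probe 2, which is listed for Mup21 alone, was at 16.37 to 17.08, with a median of 16.74, on CTRL diet. On HFD it was at 15.27 to 16.28, with a median of 15.72. That is below every CTRL mouse, where 9.51% of all genes, read at probe 1, had no overlap. The difference was -1.05 ± 0.20 (SE, adjusted p = 1.70e-04), called where 3.18% of probes were, and -0.99 (adjusted p = 6.34e-04) without replicate 1. Within the washing batches it was -1.12 and -0.87, the latter with an adjusted p of 0.0525.

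Mup20 probe 2 was at 17.53 to 17.89, with a median of 17.76, on CTRL diet and at 17.16 to 17.50, with a median of 17.19, on HFD. The groups did not overlap, as for 9.51% of all genes read at probe 1. The difference was -0.51 ± 0.09 (SE, adjusted p = 8.56e-05), a fold of 1.43, and -0.49 (adjusted p = 3.63e-04) without replicate 1. Its fold turned on the scaling: with the processed signal it was -0.67 and with median scaling -0.64, both past the fold threshold. Mup20 probe 1 differed by -0.25 ± 0.10 in the same mice, with an adjusted p of 0.0580, so the darcin gene passed at only 1 of its probes. Without replicate 1 that probe gave -0.26 (adjusted p = 0.0667).

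In fasted p110αhep+/+ mice no Mup gene was called at its brightest probe, against 2.83% of all genes, and Mup3 alone passed the adjusted p, which 16.1% of all genes did. Its level was 17.95 to 18.09 on CTRL diet and 17.33 to 17.93 on HFD, with medians of 18.01 and 17.84 and no overlap, as for 5.86% of all genes. The difference was -0.27 ± 0.08 (SE, adjusted p = 0.0161). Over 48 omissions of 1 mouse it lay between -0.33 and -0.20, with adjusted p up to 0.0885. Mup5 differed by -0.44 ± 0.20 with an adjusted p of 0.139. All 6 genes again had lower means on HFD.

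Mup21 probe 2 was called in these fasted mice, where 2.27% of probes were, at 16.07 to 16.73 with a median of 16.42 on CTRL diet and 14.31 to 16.17 with a median of 15.68 on HFD. The groups overlapped because the highest HFD mouse lay above the lowest CTRL mouse. The difference was -0.86 ± 0.21 (SE, adjusted p = 0.00324). It was -0.56 in the first washing batch (adjusted p = 0.309) and -1.01 in the second.

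In fed p110αhep-/- mice Mup20 was the gene called, where 2.33% of all genes were. With the adjusted p alone 2 of 6 genes, Mup3 and Mup20, passed, against 12.3% of all genes, and 3 of 6 had a negative difference. Mup20 probe 1 was at 18.21 to 18.53, with a median of 18.34, on CTRL diet. On HFD it was at 17.45 to 18.21, with a median of 17.77, so the groups met only at their edge. The difference was -0.60 ± 0.11 (SE, adjusted p = 1.05e-04), a fold of 1.52.

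This fold is close to the threshold. It was called in 12 of 16 alternative processings, but not without array weights, and stayed negative in all of them, from -0.66 to -0.29. Leaving out replicate 2 of the CTRL mice, or replicate 2 or 5 of the HFD mice, took its fold below the threshold, with values from -0.68 to -0.50 over the 48 omissions and adjusted p of at most 0.00285. Within the washing batches it was -0.66 and -0.46 (adjusted p = 0.183 in the second). Mup20 probe 2 did not follow it, with medians of 17.41 on CTRL diet and 17.29 on HFD and a difference of 0.02 ± 0.10 (SE, adjusted p = 0.953). Taking the median over both probes gave -0.29.

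Mup3 probe 1 also fell in fed p110αhep-/- mice, by 0.38 ± 0.09 (SE, adjusted p = 0.00181), with arrays at 17.97 to 18.06 on CTRL diet and 17.35 to 17.81 on HFD. The groups did not overlap, as was the case for 3.90% of all genes. Mup3 probe 2 gave -0.41 (adjusted p = 0.00205). Mup5, at 16.42 to 17.36 on CTRL diet and 16.82 to 17.80 on HFD, differed by 0.23 ± 0.22 with an adjusted p of 0.60. Its interval ran from -0.22 to 0.67.

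Mup21 probe 2 was called in fed p110αhep-/- mice, where 2.06% of probes were. It was at 15.90 to 16.41, with a median of 16.09, on CTRL diet and at 14.78 to 15.63, with a median of 15.17, on HFD. These ranges had no overlap, as for 3.90% of all genes read at probe 1. The difference was -0.84 ± 0.23 (SE, adjusted p = 0.0100), and -0.82 and -0.80 within the washing batches, the latter with an adjusted p of 0.244. Mup21 probe 1 differed by 0.07 ± 0.06 in these mice (adjusted p = 0.463).

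In fasted p110αhep-/- mice no Mup gene was called, against 1.89% of all genes. Mup20 probe 1 passed the adjusted p, as 10.9% of all genes did, with a median of 18.42 on CTRL diet and 17.98 on HFD and a difference of -0.33 ± 0.11 (SE, adjusted p = 0.0380). Mup3 probe 1 gave -0.25 (adjusted p = 0.0549), and Mup21 probe 2 gave -0.63 (adjusted p = 0.0640). Over the 4 comparisons of diet, 2 of 24 pairs of gene and comparison were called at probe 1, or 9 with the adjusted p alone. The calls at Mup21 probe 2 are not in these counts. Over all genes and the same 4 comparisons, 2.70% of pairs were called.

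**Figure D2:**
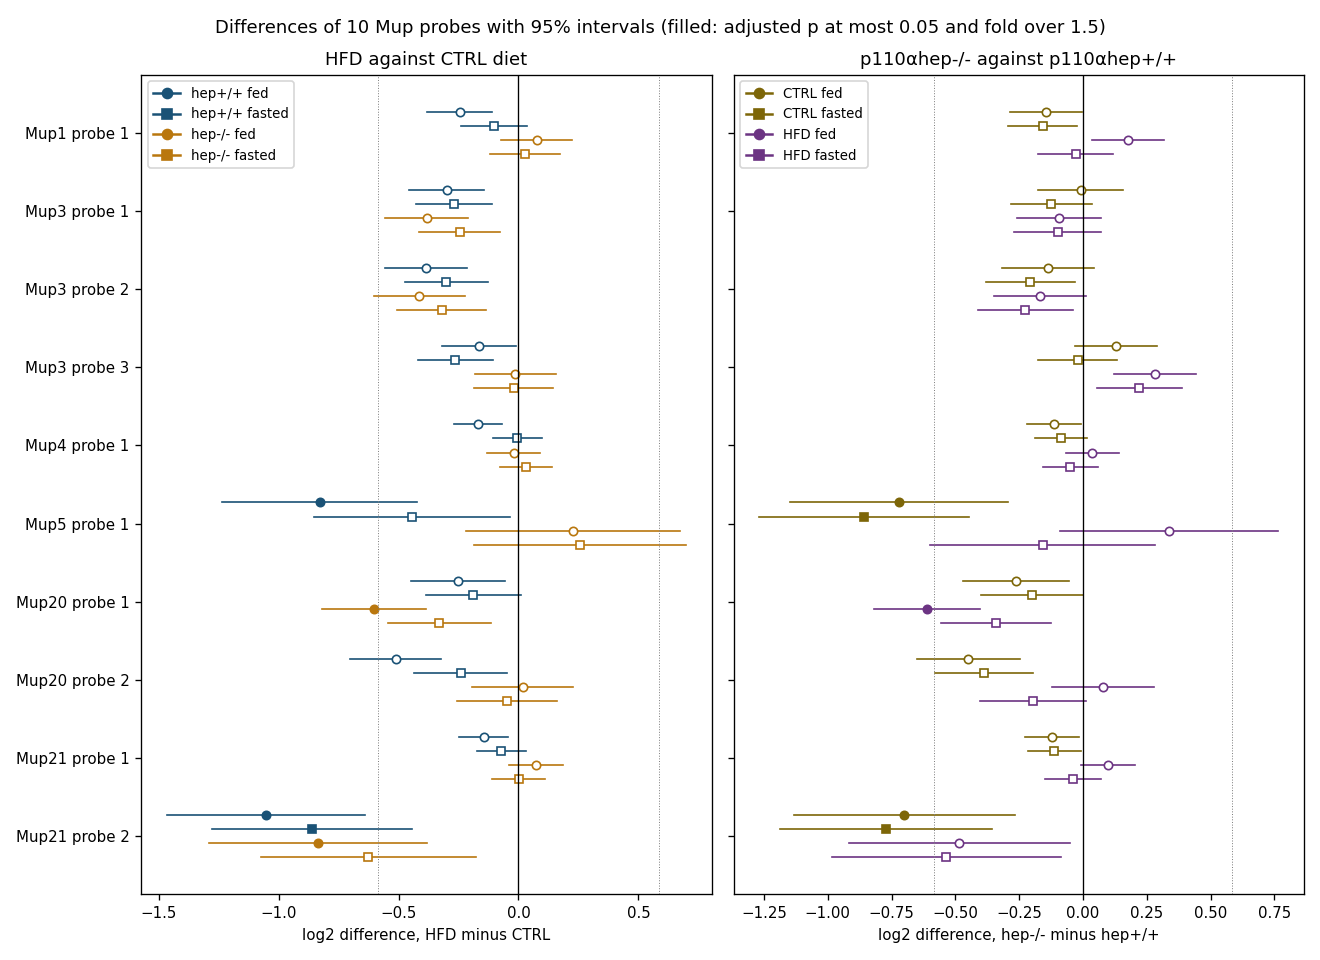
Log2 differences (horizontal axes) with 95% intervals for 10 Mup probes, HFD minus CTRL diet on the left and p110αhep-/- minus p110αhep+/+ on the right, each in 4 conditions; filled symbols passed both thresholds and dotted lines mark a fold of 1.5. Mup21 probe 2 lies left of 0 in all 8 comparisons, from -1.05 to -0.48, whereas Mup5 lies left of 0 in 5 of 8.

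The second comparison asked what loss of hepatocyte p110α did on each diet. It shares groups with the first, since p110αhep+/+ mice on CTRL diet are the control of both, so the comparisons are not independent of each other. On CTRL diet all 6 genes had lower means in p110αhep-/- mice, fed and fasted. Mup5 was called in both states, where 3.73% of all genes were called in fed and 3.23% in fasted mice. On HFD only Mup20 was called, in fed mice, where 6.23% of all genes were, and in fasted mice none of the 6 was, against 6.55% of all genes. With the adjusted p alone, 1 Mup gene passed in each of the 4 comparisons, where 21.7%, 24.8%, 33.0% and 36.8% of all genes did, in the order CTRL fed, CTRL fasted, HFD fed and HFD fasted. Without replicate 1 of fed p110αhep+/+ mice on HFD, 3 passed in each of the first 2 of these, Mup1, Mup5 and Mup21. Over the 4 comparisons of genotype, 3 of 24 pairs were called at probe 1, against 4.94% of all pairs. The calls at Mup21 probe 2, given below, are not in this count.

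Mup5 in fed mice on CTRL diet was at 17.16 to 18.09 in p110αhep+/+ and at 16.42 to 17.36 in p110αhep-/- mice, with medians of 17.62 and 17.12. The difference was -0.72 ± 0.21 (SE, adjusted p = 0.0119). It was -0.69 and -0.73 within the washing batches, where neither passed alone (adjusted p = 0.0881 and 0.139). Leaving out replicate 3 or replicate 5 of the p110αhep-/- mice ended the call, and the highest adjusted p among the 48 such fits was 0.0571.

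In fasted mice on CTRL diet, Mup5 was at 17.38 to 17.97, with a median of 17.75, in p110αhep+/+ and at 16.39 to 17.06, with a median of 16.87, in p110αhep-/- mice. Every p110αhep-/- mouse lay below every control, as held for 10.3% of all genes. The difference was -0.86 ± 0.20 (SE, adjusted p = 0.00150), a fold of 1.81. The washing batches gave -0.99 and -0.54, the latter with an adjusted p of 0.257.

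On HFD the Mup5 ranges of the genotypes overlapped. The difference was 0.34 ± 0.21 (SE, adjusted p = 0.234) in fed and -0.16 ± 0.22 (adjusted p = 0.610) in fasted mice. The intervals ran from -0.09 to 0.76 and from -0.60 to 0.28. Without replicate 1 the value in fed mice was 0.21 (adjusted p = 0.482).

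Mup20 probe 1 in fed mice on HFD was at 18.18 to 18.47, with a median of 18.37, in p110αhep+/+ mice. In p110αhep-/- mice it was at 17.45 to 18.21, with a median of 17.77, and all but the highest mouse lay below every control. The difference was -0.61 ± 0.10 (SE, adjusted p = 1.04e-05), a fold of 1.53, and -0.60 without replicate 1 of the controls. Its adjusted p stayed under 0.05 in all 16 alternative processings. Its fold fell below the threshold in 6 of them, including the fit without array weights. The fold also did so without replicate 4 of the p110αhep+/+ mice and without replicate 2 or 5 of the p110αhep-/- mice, with values from -0.69 to -0.51 over the 48 omissions.

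In fasted mice on HFD the same probe had medians of 18.43 and 17.98 and differed by -0.34 ± 0.11 (SE, adjusted p = 0.0104). On CTRL diet the differences of Mup20 probe 1 were -0.26 (adjusted p = 0.0663) in fed and -0.20 (adjusted p = 0.146) in fasted mice.

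Mup20 probe 2 showed the reverse order of diets. On CTRL diet it was at 17.53 to 17.89 in fed p110αhep+/+ and 17.00 to 17.57 in fed p110αhep-/- mice, a difference of -0.45 ± 0.10 (SE, adjusted p = 8.89e-04). In fasted mice on CTRL diet it was at 17.57 to 17.80 and 17.05 to 17.46. These ranges had no overlap, as for 10.3% of all genes read at probe 1, and the difference was -0.39 ± 0.10 (adjusted p = 0.00221). On HFD the difference was 0.08 ± 0.10 (adjusted p = 0.585) in fed mice, or 0.06 (0.726) without replicate 1 of the controls, and -0.19 ± 0.10 (adjusted p = 0.141) in fasted mice. In fed mice on HFD the probes of the darcin gene had differences of opposite sign, whereas in fasted mice both were negative and probe 1 alone passed.

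Mup21 probe 2 was called on CTRL diet in both states, where 3.15% and 2.83% of probes were. In fed mice it was at 16.37 to 17.08 in p110αhep+/+ and 15.90 to 16.41 in p110αhep-/- mice, a difference of -0.70 ± 0.22 (SE, adjusted p = 0.0163), which without replicate 3 of the p110αhep-/- mice had an adjusted p of 0.0595. In fasted mice the medians were 16.42 and 15.50 and the difference was -0.77 ± 0.21 (adjusted p = 0.00485). Neither passed within a single washing batch, where the values were -0.68 and -0.67 in fed and -0.64 and -0.59 in fasted mice. On HFD the differences were -0.48 (adjusted p = 0.0824) in fed and -0.54 (adjusted p = 0.0566) in fasted mice, the former being -0.55 (0.0544) without replicate 1 of the controls.

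Mup1, Mup3, Mup4 and Mup21, each read at probe 1, did not pass the adjusted p in any comparison of genotype. Their differences lay between -0.16 and 0.18, with the highest in Mup1 of fed mice on HFD (adjusted p = 0.0506). That value was 0.10 (adjusted p = 0.221) without replicate 1 of the controls. Without the same mouse Mup1 passed the adjusted p on CTRL diet, at -0.17 (0.0420) in fed and -0.16 (0.0390) in fasted mice, both under the fold threshold.

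**Figure D3:**
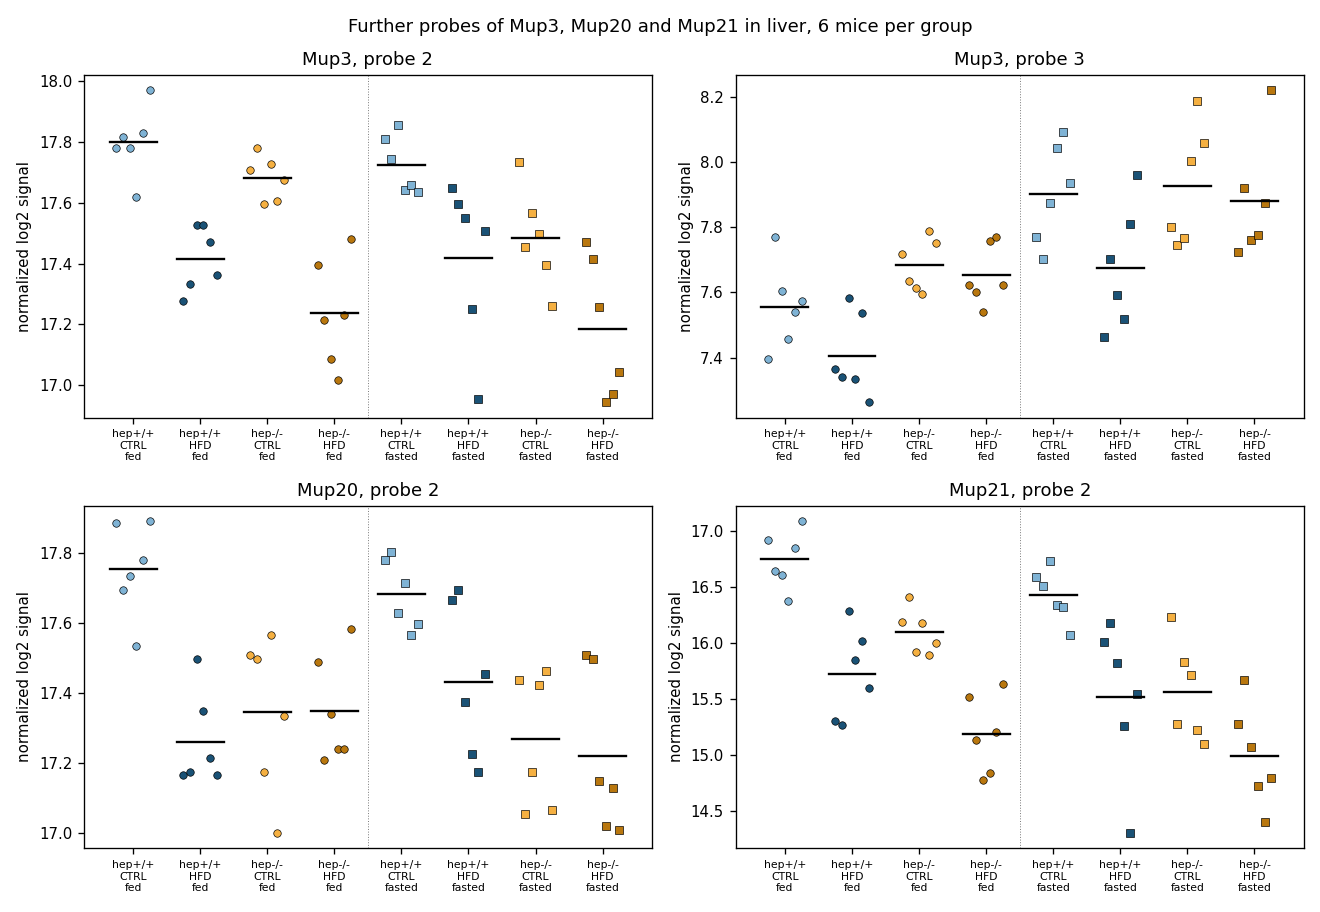
Normalized log2 signal (vertical axes, separate scale for each probe, not starting at 0) of the further probes of Mup3, Mup20 and Mup21 in 8 groups of 6 mice; each point is 1 mouse and each line a group mean. Mup21 probe 2 runs from a mean of 16.74 in fed p110αhep+/+ mice on CTRL diet to 14.99 in fasted p110αhep-/- mice on HFD.

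Whether the response to HFD differed between genotypes was tested as an interaction. It was positive for Mup5 in fed mice, at 1.06 ± 0.30 (SE, adjusted p = 0.0438), the difference between a response of -0.83 in p110αhep+/+ and of 0.23 in p110αhep-/- mice. Of all genes, 1.38% were called in this test. Its adjusted p lay near the threshold, and 8 of 16 alternative processings lost the call, with values from 0.98 to 1.23 throughout. Without replicate 1 of fed p110αhep+/+ mice on HFD it was 0.95, with an adjusted p of 0.0724. In all, 11 of 48 omissions lost the call: replicates 5 and 6 of p110αhep+/+ on CTRL diet, 1, 2 and 6 of p110αhep+/+ on HFD, 3, 5 and 6 of p110αhep-/- on CTRL diet and 1 and 6 of p110αhep-/- on HFD, all fed, and replicate 6 of fasted p110αhep-/- mice on HFD. Its value stayed between 0.92 and 1.20, with adjusted p up to 0.114.

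Mup20 probe 2 had an interaction of 0.53 ± 0.14 (SE, adjusted p = 0.0321) in fed mice, a fold of 1.44, where 2.63% of probes passed the adjusted p, and 0.51 (adjusted p = 0.0530) without that mouse. With the processed signal it was 0.65 (adjusted p = 0.0283) and with median scaling 0.63 (adjusted p = 0.0224), past both thresholds. Mup20 probe 1 had one of -0.35 ± 0.15 (adjusted p = 0.188), of the opposite sign, which without that mouse was also -0.35 (0.221). Mup1 gave 0.32 ± 0.10 (adjusted p = 0.0679) and Mup21 probe 1 gave 0.22 ± 0.08 (adjusted p = 0.0995), or 0.27 (0.0860) and 0.19 (0.112) without it. The value of Mup1 turned on the processing, from 0.25 to 0.62 over 16 alternatives. In fasted mice Mup5 gave 0.70 ± 0.30 (adjusted p = 0.167). Of 36 pairs of gene and interaction, including those with fasting, 1 was called, against 1.63% of all pairs. The other 5 interactions had none of 6 Mup genes called by limma, beside 1.86% of genes for genotype and diet in fasted mice, 1.33% and 1.38% for genotype and fasting on CTRL diet and HFD, and 0.893% and 2.90% for diet and fasting in p110αhep+/+ and p110αhep-/- mice. Over all 36 pairs, 8 had an unadjusted p under 0.05, as did 23413 of the 122916 pairs over all genes.

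Fasting was the third factor. No Mup gene was called in any of its 4 comparisons by limma, 0 of 24 pairs, although 5.79% of all pairs of gene and comparison were called. By comparison that was 5.45% of genes in p110αhep+/+ mice on CTRL diet, 4.72% in p110αhep+/+ on HFD, 7.09% in p110αhep-/- on CTRL diet and 5.89% in p110αhep-/- on HFD. With the adjusted p alone 3 of 24 pairs passed, beside 32.6%, 28.5%, 35.6% and 28.6% of genes in the same order, and 4 had an unadjusted p under 0.05, beside 40.6% of all pairs. Mup4, which is also made in the nose, fell in fasted mice on CTRL diet by 0.16 ± 0.05 in p110αhep+/+ (SE, adjusted p = 0.0146) and by 0.13 ± 0.05 in p110αhep-/- mice (adjusted p = 0.0464). This direction did not hold under other scalings: the values were 0.0034 and 0.07 with the processed signal and 0.01 and 0.05 with median scaling, none past the adjusted p, which ran from 0.536 to 0.980. Mup20 probe 1 rose in p110αhep-/- mice on HFD by 0.31 ± 0.11 (adjusted p = 0.0354), from a median of 17.77 to 17.98, with overlapping arrays, whereas Mup20 probe 2 differed there by -0.10 ± 0.11 (adjusted p = 0.547).

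Mup3 probe 3 is dim, with 16103 probes brighter on average, and was designed on a cDNA for which the files list no RefSeq gene. It rose with fasting in p110αhep+/+ mice, by 0.37 ± 0.08 (SE, adjusted p = 2.30e-04) on CTRL diet and by 0.27 ± 0.07 (adjusted p = 0.00510) on HFD, where 30.8% and 26.8% of probes passed the adjusted p. In p110αhep-/- mice it rose by 0.22 ± 0.08 (adjusted p = 0.0286) on CTRL diet and differed by 0.21 ± 0.09 (adjusted p = 0.0651) on HFD. It was higher in p110αhep-/- mice on HFD, by 0.28 ± 0.08 (adjusted p = 0.00570) in fed and 0.22 ± 0.08 (adjusted p = 0.0328) in fasted mice. It was lower on HFD in fasted p110αhep+/+ mice, at -0.26 ± 0.08 (adjusted p = 0.0161). Without replicate 1 of fed p110αhep+/+ mice on HFD, its fasting difference there was 0.27 (0.00928) and its genotype difference in fed mice 0.28 (0.0100). The other probes of Mup3 did not pass in the comparisons of fasting in p110αhep+/+ mice, with differences from -0.08 to 0.02. Across 48 arrays its correlation with Mup3 probe 1 was 0.01.

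Probes were then compared with each other across the 48 arrays, as a description in which the arrays share normalization and groups. The Mup1 probe and Mup21 probe 1, which are listed for 3 genes in common, correlated at 0.95, and at 0.94 within groups. Mup3 probe 2 and Mup21 probe 2 correlated at 0.96, and at 0.93 within groups. The 2 probes of Mup21 correlated at 0.57, less than each did with a probe of another gene, and the 2 probes of Mup20 at 0.68. Mup20 probe 2 correlated at 0.91 with Mup5, and Mup5 at 0.90 with both the Mup1 probe and Mup21 probe 1. Probes 1 and 2 of Mup3 correlated at 0.95, and at 0.92 within groups.

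High correlations thus occurred both within a gene, for Mup3, and between genes. Mup3 probe 2 fell on HFD in both genotypes, fed and fasted, by 0.30 to 0.41, and Mup21 probe 2 did so except in fasted p110αhep-/- mice, where its adjusted p was 0.0640. Mup5 and Mup20 probe 2 fell on HFD in fed p110αhep+/+ mice, and in fasted p110αhep+/+ mice they differed by -0.44 and -0.24 (adjusted p = 0.139 and 0.0822). How far binding of other Mup transcripts entered these levels was not tested.

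**Figure D4:**
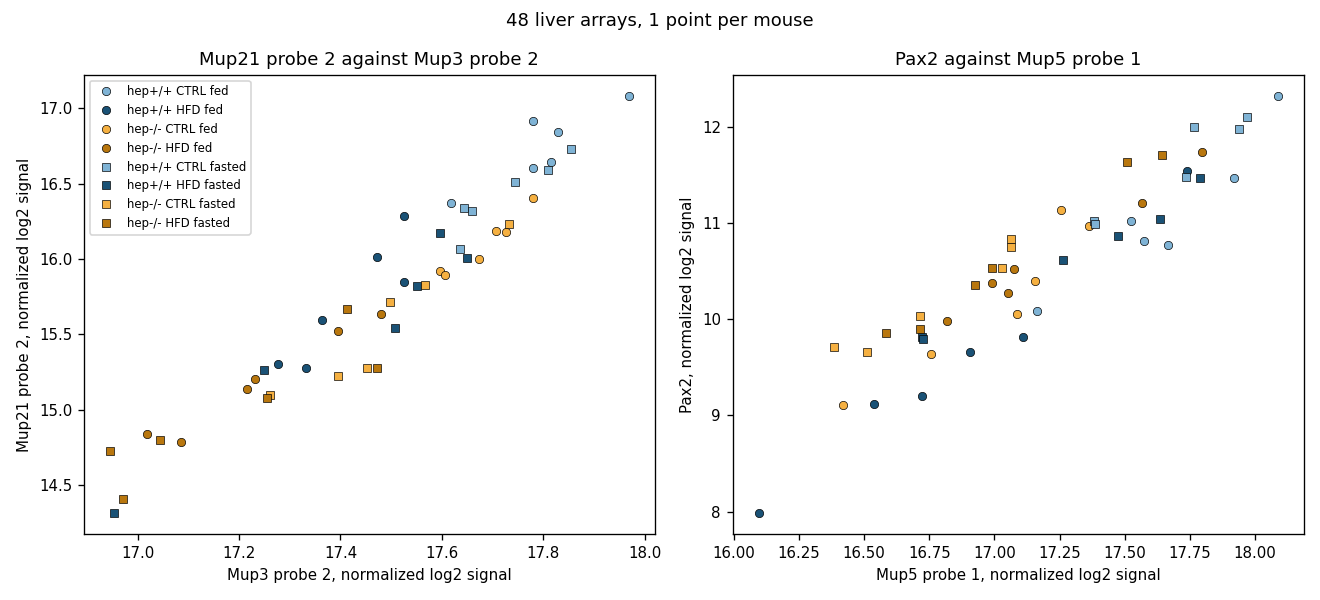
Normalized log2 signals of 48 mice, Mup21 probe 2 (vertical) against Mup3 probe 2 (horizontal) on the left and Pax2 (vertical) against Mup5 (horizontal) on the right; colour gives genotype and diet, circles fed and squares fasted mice, and axes do not start at 0. Points lie along a line in both plots, with correlations of 0.96 and 0.94, and replicate 1 of fed p110αhep+/+ mice on HFD is the lowest point of the right plot.

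Among 15671 other genes, those most like each member by correlation over 48 arrays were listed, 3 for each member. For Mup20 probe 1 they were Mup-ps12 (0.94), Mup-ps16 (0.89) and Ugt2b37 (0.81), the first 2 being pseudogenes of the same cluster. For Mup3 they were Olfr125 (0.84), Mup-ps16 (0.81) and Serpine2 (0.77). For Mup1, Mup5 and Mup21 probe 1 the same 3 names came out, Pax2, Parvb and Prm3, with correlations to Mup5 of 0.94, 0.92 and 0.93. Mup21 probe 1 is also listed for Mup1, and Mup21 probe 2 was not compared in this way. For Mup4 they were Spaca4 (0.71), Prm3 (0.67) and Fzr1 (0.66).

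These genes were named for their likeness to a member over the same arrays, so their differences describe the same pattern and are given with no test. Mup-ps12 differed with HFD by -1.12 ± 0.24 (SE) in fed p110αhep+/+ mice and by -0.99 ± 0.27 in fed p110αhep-/- mice. Its differences between genotypes were -1.10, -0.94, -0.97 and -0.75 for CTRL fed, CTRL fasted, HFD fed and HFD fasted. Pax2, a kidney transcription factor, is among those most like Mup5. It differed by -1.58 with HFD in fed p110αhep+/+ mice and by 2.11 in the interaction, or by -1.34 and 1.87 without replicate 1, the lowest of these arrays. Its raw signal reached 0.568% of saturation.

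The array also names 5 other Mup genes, Mup2, Mup6, Mup11, Mup17 and Mup19, and all passed the filter. In fed p110αhep+/+ mice HFD lowered 2 of them past both thresholds, Mup11 at -1.16 ± 0.25 (SE, adjusted p = 6.17e-04) and Mup6 at -0.86 ± 0.23 (adjusted p = 0.00483), with a median over the 5 of -0.57. Both stayed called without replicate 1, at -1.01 and -0.88. Of all genes, 3.74% were called in this comparison. In the other 3 comparisons of diet none of the 5 was called, beside 2.83%, 2.33% and 1.89% of all genes. With genotype 1, 2, 1 and 1 of the 5 were called lower and 0, 0, 1 and 0 higher, in the order CTRL fed, CTRL fasted, HFD fed, HFD fasted. Of all genes, 3.73%, 3.23%, 6.23% and 6.55% were called in that order. Mup6 was lower in p110αhep-/- mice in all 4 comparisons of genotype, by -1.32, -1.09, -1.01 and -0.90 in that order. Mup11 was called lower in fasted mice on CTRL diet at -0.67 (adjusted p = 0.0480) and higher in fed mice on HFD at 1.13 (adjusted p = 8.89e-04). With fasting, Mup11 was called higher in p110αhep+/+ mice on HFD at 0.76 (adjusted p = 0.0178), where 4.72% of all genes were called. That call was lost without replicate 1 (0.0599), and no other of the 5 was called with fasting. Mup11 had an interaction of genotype and diet of 1.42 (adjusted p = 0.0289) in fed mice, of the same sign as that of Mup5. Without replicate 1 it was 1.27 (adjusted p = 0.0530). In the interaction of genotype and fasting on HFD, 1 of the 5 was called lower. Of all genes, 1.38% were called in each of these 2 interactions.

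Promoter sequences from RefSeq (GRCm38.p6) were at hand for 3 of 6 members, Mup3, Mup4 and Mup21, and are shown because Mup3 and Mup21 had probes that moved together. Each is the 250 bases before the start, on the minus strand of chromosome 4: chr4:62087318-62087567 for Mup3, chr4:59960668-59960917 for Mup4 and chr4:62150842-62151091 for Mup21. Capitals mark TATATAA, letters chosen after the sequences were seen. They occur once in each of these promoters, beginning 11, 29 and 8 bases before the start, and in 3.04% of 32851 promoters on either strand.
Mup3 promoter: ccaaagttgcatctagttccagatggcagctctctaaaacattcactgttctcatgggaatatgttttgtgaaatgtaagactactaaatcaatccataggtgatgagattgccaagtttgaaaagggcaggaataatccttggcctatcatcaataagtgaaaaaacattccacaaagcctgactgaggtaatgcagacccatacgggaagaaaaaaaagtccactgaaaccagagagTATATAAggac
Mup21 promoter: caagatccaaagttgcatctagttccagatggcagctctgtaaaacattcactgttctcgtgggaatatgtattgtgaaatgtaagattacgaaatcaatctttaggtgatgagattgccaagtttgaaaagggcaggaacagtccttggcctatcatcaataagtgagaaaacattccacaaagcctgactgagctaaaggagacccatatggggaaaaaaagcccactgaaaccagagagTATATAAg
Mup4 promoter: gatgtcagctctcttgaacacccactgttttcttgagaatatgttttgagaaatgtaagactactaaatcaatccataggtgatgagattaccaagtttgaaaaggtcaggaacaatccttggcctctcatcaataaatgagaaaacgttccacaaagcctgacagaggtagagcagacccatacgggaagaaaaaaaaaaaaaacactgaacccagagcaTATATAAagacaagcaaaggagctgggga

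Set side by side without gaps, the Mup3 and Mup21 promoters had 205 of 244 bases the same, the Mup3 and Mup4 promoters 183 of 229, and the Mup4 and Mup21 promoters 174 of 223. The letters TTCNNNGAA, the pattern bound by STAT5, were searched on both strands. They were in 0 of these 3 windows and in 7.02% of all promoters of that length.

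Genes of growth hormone signalling were read from a list of 9, all of which passed the filter. The counts of this and the following lists stand beside these shares of all genes called. With diet they were 3.74%, 2.83%, 2.33% and 1.89% in fed and fasted p110αhep+/+ and fed and fasted p110αhep-/- mice. With genotype they were 3.73%, 3.23%, 6.23% and 6.55% for CTRL fed, CTRL fasted, HFD fed and HFD fasted. With fasting they were 5.45%, 4.72%, 7.09% and 5.89% for p110αhep+/+ on CTRL diet and HFD and p110αhep-/- on CTRL diet and HFD. In fed p110αhep+/+ mice, HFD lowered Socs2, a growth hormone target that restrains the pathway, at -1.17 ± 0.37 (SE, adjusted p = 0.0198), and Igfals, which carries Igf1 in blood, at -0.83 ± 0.12 (adjusted p = 1.73e-06). In the other 3 comparisons of diet 0 of 9 were called. With genotype, Bcl6 was lower in fasted mice on CTRL diet, Igfals was higher in fed mice on HFD and Socs2 was higher in fasted mice on HFD, and no other member was called. The call of Igfals was lost without replicate 1 of the controls, where its value was 0.52. With fasting Socs2 was called higher in 3 of 4 comparisons and Igfals in p110αhep+/+ mice on HFD, the latter again not without that replicate. In fed p110αhep+/+ mice, Ghr, the receptor, differed by -0.02 with diet, and Stat5b, its main transcription factor in liver, by 0.34 (adjusted p = 0.00479), below the fold threshold.

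Of the transcription factors known to act on Mup or other sex-biased genes, 12 of 12 passed the filter. On HFD, 1, 0, 1 and 0 of them were called lower in fed p110αhep+/+, fasted p110αhep+/+, fed p110αhep-/- and fasted p110αhep-/- mice, and none higher. The first of these was Onecut1, at -2.13 (adjusted p = 9.62e-04), and -1.99 without replicate 1, where 2 were called lower. With genotype, 1 was called lower in each of the 4 comparisons, and 0, 1, 0 and 1 higher in the order CTRL fed, CTRL fasted, HFD fed, HFD fasted. The gene called higher was Cux2, a factor of female liver, by 1.61 on CTRL diet and 2.06 on HFD. It was well above background on 6 of 6 arrays of fasted p110αhep-/- mice and on 1 of 6 of fasted p110αhep+/+ mice, on each diet, so these values are set against arrays near background. With fasting, 1, 0, 1 and 0 were called lower and 1, 1, 2 and 4 higher in p110αhep+/+ on CTRL diet, p110αhep+/+ on HFD, p110αhep-/- on CTRL diet and p110αhep-/- on HFD. The second of the higher counts, Onecut1, became 0 without replicate 1.

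Other genes with male-biased liver expression were listed too. Of 15 listed, 14 passed the filter, and 9, 6, 5 and 3 were called lower in fed p110αhep+/+, fasted p110αhep+/+, fed p110αhep-/- and fasted p110αhep-/- mice. Their median differences were -1.14, -0.64, -0.61 and -0.42, beside medians over all genes of -0.01, -0.02, -0.00 and -0.00. Hsd3b5, a steroid dehydrogenase, differed by -6.59 in the first of these and Cyp4a12a, a fatty acid hydroxylase, by -2.67. None was called higher. The 6 Mup genes had medians of -0.25, -0.14, 0.03 and 0.01 in the same order. Without replicate 1 of fed p110αhep+/+ mice on HFD the first count was again 9.

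With genotype the male-biased list moved both ways, with 4, 4, 1 and 4 called lower and 2, 1, 4 and 2 higher, in the order CTRL fed, CTRL fasted, HFD fed, HFD fasted. Nat8, an acetyltransferase, was lower in all 4 comparisons, by -1.62, -2.12, -1.76 and -3.22, and Susd4 was higher in all 4. Cyp4a12a was lower in 3 of them, and Hsd3b5 was higher in fed mice on HFD at 3.51. With fasting, 7 were called higher in p110αhep+/+ mice on HFD, or 6 without replicate 1, and 2 lower in p110αhep-/- mice on HFD, and on CTRL diet none was called by limma, with 0 and 1 passing the adjusted p alone.

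Of 20 genes with female-biased expression, 17 passed the filter, and 5, 4, 7 and 6 were called higher on HFD in the same order, with 1, 0, 3 and 2 called lower. Cyp2b13 differed by 5.58 in fed p110αhep+/+ mice, where it was well above background on 5 of 6 arrays on CTRL diet and 6 of 6 on HFD. Among 10 other lipocalins, relatives of the major urinary proteins, 2, 2, 0 and 1 were called higher on HFD and 0, 0, 1 and 0 lower. Lcn2, an acute phase lipocalin, differed by 1.58 and Orm3 by 1.64 in fed p110αhep+/+ mice. With genotype, in the order used above, 3, 4, 2 and 3 female-biased genes were called higher and 1, 2, 3 and 3 lower, and 2, 1, 1 and 1 of the lipocalins were called higher and 0, 0, 2 and 1 lower. Apom, which carries lipid in blood, was the lipocalin higher in all 4, from 0.77 to 1.22.

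Markers of other cell types were read beside these results. In the 4 comparisons of diet, none of 4 bile duct, 4 Kupffer cell, 4 stellate cell, 3 sinusoidal endothelium and 2 detected adipose markers was called by limma. Of 3 erythroid markers, 2 were called higher in fasted p110αhep-/- mice on HFD. Cps1, of the 6 hepatocyte markers, was called lower on HFD in fed p110αhep+/+ mice, at -0.82, and higher in p110αhep-/- mice in 3 of 4 comparisons of genotype.

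With genotype, the bile duct marker Krt19 was called lower in 3 of 4 comparisons, from -0.89 to -0.73, and was well above background on 3 of 6 arrays of fasted p110αhep-/- mice on CTRL diet. The sinusoidal endothelium marker Lyve1 was called lower in fed mice on both diets, at -1.13 on CTRL diet and -0.82 on HFD, and Clec4g higher in fasted mice on HFD, at 0.68. The stellate cell marker Lrat was called lower in fed mice on CTRL diet, at -0.65, and the erythroid marker Alas2 in fasted mice on both diets, at -1.06 and -0.59. Tat, of the hepatocyte list, was called higher in fed mice on CTRL diet, at 0.73. No Kupffer cell or adipose marker was called by limma with genotype. Cela2a, of the exocrine pancreas list, was higher in p110αhep-/- mice in all 4, from 1.00 to 2.30, and it also moved with diet, lower in fed p110αhep+/+ and higher in fasted p110αhep-/- mice. Cpa1 and Prss2, defining markers of the same list, were well above background on 0 of 48 arrays and Pnlip on 1. With fasting, all 3 erythroid markers and Krt19 were called lower and Lyve1 and Tat higher in p110αhep-/- mice on CTRL diet, the comparison in which Mup4 fell and Mup3 probe 3 rose, and the erythroid median was -0.73. In p110αhep-/- mice on HFD, Lyve1 and Cela2a were called higher. In p110αhep+/+ mice, Tat was called higher on both diets, Lrat lower on CTRL diet and Cela2a higher on HFD, where Tat was lost without replicate 1. The part of these markers in the Mup results was not tested.

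**Figure D5:**
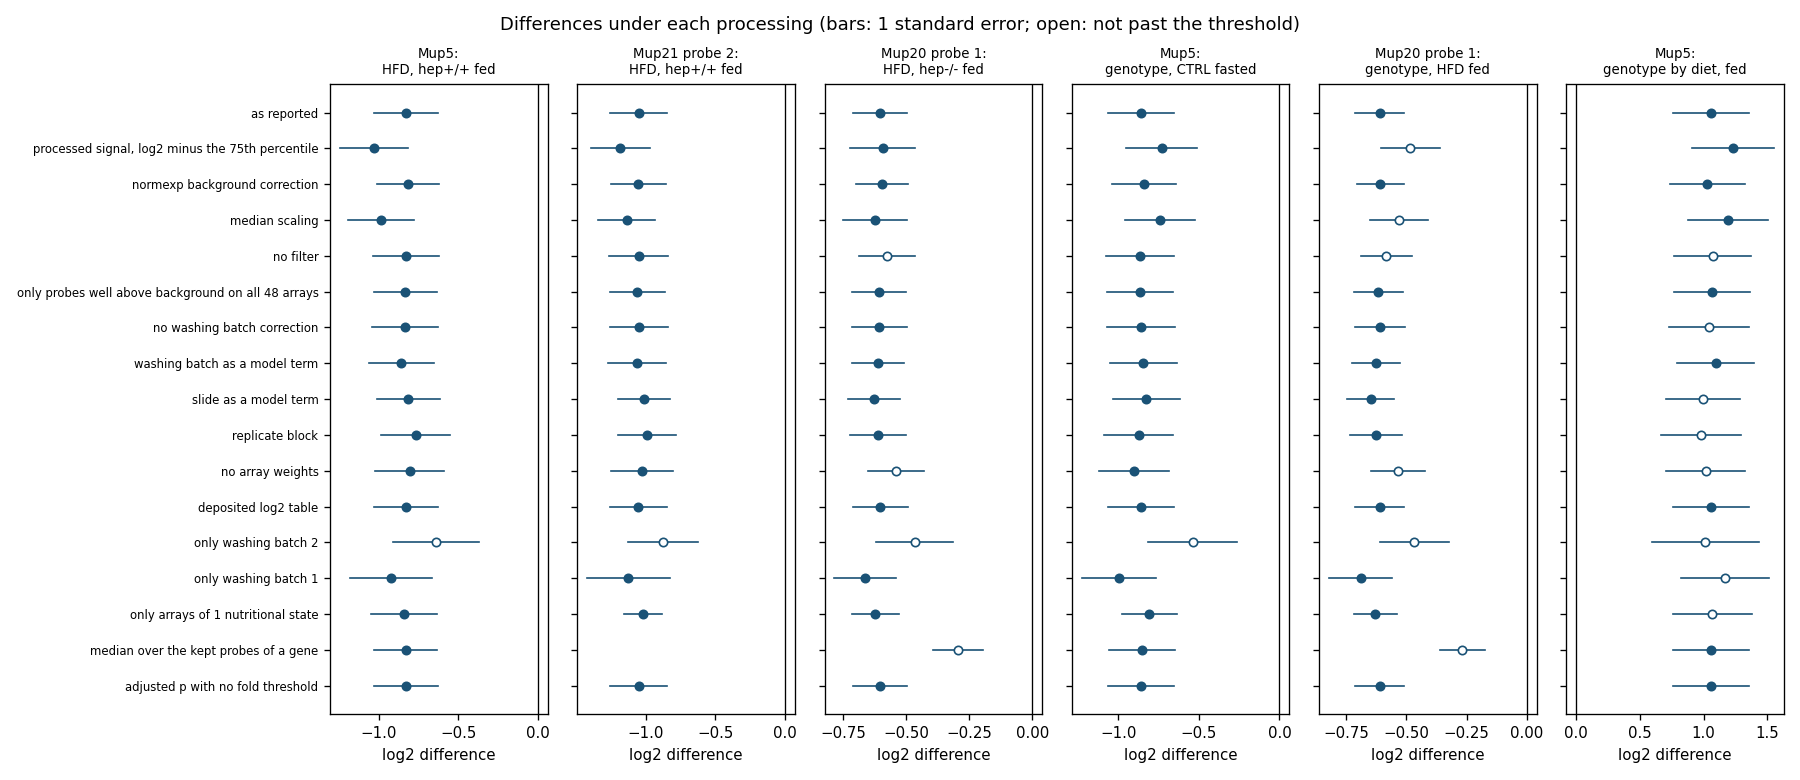
Log2 differences (horizontal axes, bars 1 standard error) of 6 Mup results as reported and under 16 other processings, listed on the left; filled points passed both thresholds, and Mup21 probe 2 has no value for the median over probes. Every point keeps its side of 0, and the median over the kept probes moves Mup20 from -0.60 to -0.29 for diet and from -0.61 to -0.27 for genotype.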

How the data were processed

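Per the labels and the file headers, total RNA (200 ng per mouse) was labelled with Cy3 and hybridised to 48 single-colour Agilent SurePrint arrays, and the authors extracted spot values with Feature Extraction 10.10.1.1. The deposited scanner files hold the signal intensity of each spot with no scaling between arrays. The authors also deposited a table of processed log2 values, used here as an alternative only.

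The median signals of 59305 spots that are not controls were taken to log2, outlier spots (92 to 151 per array) were set aside, and spots of a probe were averaged. Probes well above background on at least 5 of 6 arrays of a group were kept, 30793 of 56605. The washing batch was removed with the group means protected, followed by quantile normalization. Group means were fitted with array weights in limma 3.58.1 (R 4.3.3, data.table version 1.17.8), with 18 contrasts and Benjamini-Hochberg adjustment over all kept probes. Because arrays are weighted, a difference can deviate from that of plain means. Without array weights both calls of Mup20 probe 1 and the called interaction of Mup5 were lost. Script steps were tested on simulated data with known changes.

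The members were given by name, every member is described, and for each the 3 most correlated other genes are named. Members and gene lists (growth hormone signalling, transcription factors, male-biased and female-biased genes, other lipocalins, other Mup names and cell type markers) were chosen with earlier results of these data known. The labels number the mice of a group from 1 to 6, so p-values measure the spread between these mice. The number of arrays limits the precision. Alternatives changed the signal, the scaling, the filter, the batch term, the weights, the threshold, the probe rule and the arrays used. A few items are not reported here.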

Additional observations from a re-analysis of the deposited data

Results flagged for a closer look

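In fed p110αhep+/+ mice on HFD, replicate 1 lay apart from the other 5 in Mup3 probe 1, at 17.39 against 17.69 to 17.85, a gap wider than Dixon's test allows for 6 values. Chance marks about 1 in 20 groups in this way. Without that mouse the response of Mup3 probe 1 to HFD was -0.26 (adjusted p = 0.0125).

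The response of Mup5 to HFD differed between genotypes in fed mice by 1.06 ± 0.30 (SE, adjusted p = 0.0438, limma), from -0.83 in p110αhep+/+ to 0.23 in p110αhep-/- mice. Without replicate 1 of fed p110αhep+/+ mice on HFD it was 0.95 (adjusted p = 0.0724), and 11 of 48 omissions and 8 of 16 alternative processings lost the call. In fasted mice the same interaction was 0.70 (adjusted p = 0.167).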

How the results depend on the processing

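Of 36 pairs of Mup probe and comparison that passed the adjusted p, all but 2 kept their direction under every alternative processing run. The exceptions were the falls of Mup4 with fasting on CTRL diet, which became 0.0034 and 0.07 with the processed signal and 0.01 and 0.05 with median scaling, where the median over all probes was 0.02 to 0.03. Of the 144 pairs that did not pass, 73 changed sign under at least 1 alternative. As reported, 2 pairs of gene and comparison were called for diet, 0 for fasting, 3 for genotype and 1 for the interactions. The pairs called for diet became 1 with no filter or no array weights, 0 in the second washing batch alone and 9 with no fold threshold. Those for fasting became 1 in the first washing batch alone and 3 with no fold threshold. Those for genotype became 0 in the second washing batch alone. Of the 16 processings, 6 lost the genotype call of Mup20 in fed mice on HFD. The genotype call of Mup5 on CTRL diet was lost in 2 for fed and 1 for fasted mice. The interactions became 2 with the processed signal, and 0 with no filter, no batch correction, a slide term, no array weights, either washing batch alone or arrays of 1 nutritional state alone. Leaving out 1 mouse at a time gave 1 to 2 pairs for diet, 0 to 0 for fasting, 2 to 3 for genotype and 0 to 1 for the interactions, where 11 of 48 omissions lost the call. The cause was not tested, beyond the fewer arrays in the fits within a batch or nutritional state.

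The replicate block left 0 interactions called, with Mup5 at 0.98 (adjusted p = 0.0930). The replicate numbers are not known to pair mice: deviations of same-numbered mice correlated at 0.0189 on average, with a lowest value of -0.3404. No spot of a Mup probe was saturated, and all Mup probes were well above background on all 48 arrays.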

Other observations

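Some probes outside the cluster tracked Mup5 across the 48 arrays, and a repeat was looked for in them after their values were seen. Of 30793 kept probes, 10 hold a run of CAG triplets at least 12 bases long, and their median correlation with Mup5 was -0.56, from -0.89 to 0.22, against -0.0033 over the other probes. Of the 10, 5 had a correlation below -0.5. Git2, Trp63 and Crebbp are among the 10 and enter their median. They were first seen as the 3 genes least like the mean of the members, with correlations of -0.86, -0.84 and -0.83. Another 3 probes hold a run of CTG of that length, the complementary strand, with correlations from 0.25 to 0.93 and a median of 0.93. Prm3, named above among the genes most like Mup5, is 1 of these 3. The brightest probe of none of the 6 Mup members holds either run. The arrays share normalization and groups, and no test was made.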
